A study of Mus musculus with 12 samples.

Results

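The response of wild-type (WT) mouse embryonic fibroblasts (MEFs) to heat shock was followed across the transcriptome by comparing MEFs held at 42 °C in a water bath for 20 min with MEFs left at 37 °C. The genes compared were those whose normalised read count (signal) reached 10 or more in 3 or more of the 6 WT libraries, which gave 13147 of the 45808 genes listed. Signal is the number of reads of a gene divided by the size factor of its library, so that libraries of unequal depth share a scale. Of the genes left out, 22976 had no read in any WT library and 9685 were read below this level. Among the genes kept, 12423 reached 10 in all 6 libraries, 48 reached it only in heat-shocked libraries and 30 only in control libraries. For those 48 and 30 genes the rule itself fixed the direction of change. They include Hspa1a, Rmrp, Gm8696, Hist1h1a and Hist1h4d on the side of heat shock and Snord100 and Snora17 on the side of the controls. The gene closest to the limit inside it had a third-highest value of 10.1, and the closest outside had 9.88.

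The study set WT MEFs beside MEFs of mice lacking type 2 transglutaminase (TG2 KO), each as control and after heat shock, in 4 groups of 3 libraries. The WT line came from C57BL/6 embryos taken at E14 and had been passaged until it became immortal without a transforming agent. Control and heat-shocked WT MEFs had the same genotype and medium and differed in the labels by the 42 °C step alone. The labels number the libraries of a group 1 to 3 without saying whether they were separate cultures, so every p-value here measures the spread between these libraries, which may be technical.

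Heat shock factor 1 (HSF1) is the transcription factor that drives the classical response to heat in mammalian cells. Chaperones hold it inactive in unstressed cells. When heat unfolds proteins it is released, forms trimers and binds heat shock elements, which are inverted repeats of the unit GAA, in front of genes for chaperones such as the inducible Hsp70. Heat also activates stress kinases that switch on immediate early genes, among them Fos, Jun and Egr1, whose transcription does not need new protein. In other heat-shocked mammalian cells, transcription of many further genes falls within minutes.

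The 6 WT libraries held 15319300 to 27668395 reads in genes, with heat shock 3 the shallowest and control 3 the deepest. Fibroblast markers matched the label, since 10 of 11 had a mean signal of at least 100, and their summed signal was 205424 to 231760 in control and 341166 to 372507 in heat-shocked libraries, where Col1a1, Col1a2 and Fn1 were called higher. The defining red cell genes were at 0 in all 6 libraries, as were 3 of 5 endothelial genes (Cdh5, Tek and Tie1). The 5 endothelial genes summed to 21.7 to 29.3 in control and 23.9 to 29.6 in heat-shocked libraries, and 1 of them was tested. Markers of other cell types with a mean of at least 100 were Csf1r, Cd68, Tubb3, Map2, Tnnt2 and Sox9. Of these Cd68, a lysosomal protein abundant in macrophages, was called higher, with a signal of 152, 105 and 113 in the controls and 214, 192 and 204 after heat shock. The part of other cell types in the results was not tested. Bulk libraries cannot tell fewer cells of a type from less RNA per cell.

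A gene was called when its Benjamini-Hochberg adjusted p in limma was at most 0.05 and its fold change at least 1.5. After heat shock 189 genes were called higher (1.44% of those tested) and 256 lower (1.95%), 445 or 3.38% either way. All heat-shocked libraries lay above all controls in 2961 genes (22.5%) and below them in 2892 (22.0%). Without the fold threshold the test passed 1940 higher and 2046 lower genes, so most of what passed was a change under 1.5-fold. The genes called higher were mostly weakly expressed, with a median control signal of 28.1 against 592 over all genes. Their median log2 fold change was 1.0, 93 of them rose at least 2-fold and 26 at least 4-fold. The genes called lower moved less, with a median of −0.72, 43 at least 2-fold and 7 at least 4-fold, from a median control signal of 132. Predicted genes and pseudogenes made up 72 of the higher and 69 of the lower calls. Their share over all genes tested was not counted, so no excess can be read from these counts. The lower count rested on single libraries, being 128 without control 3, 162 without heat shock 3, 408 without heat shock 1 and 462 without control 1.

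**Figure D1:**
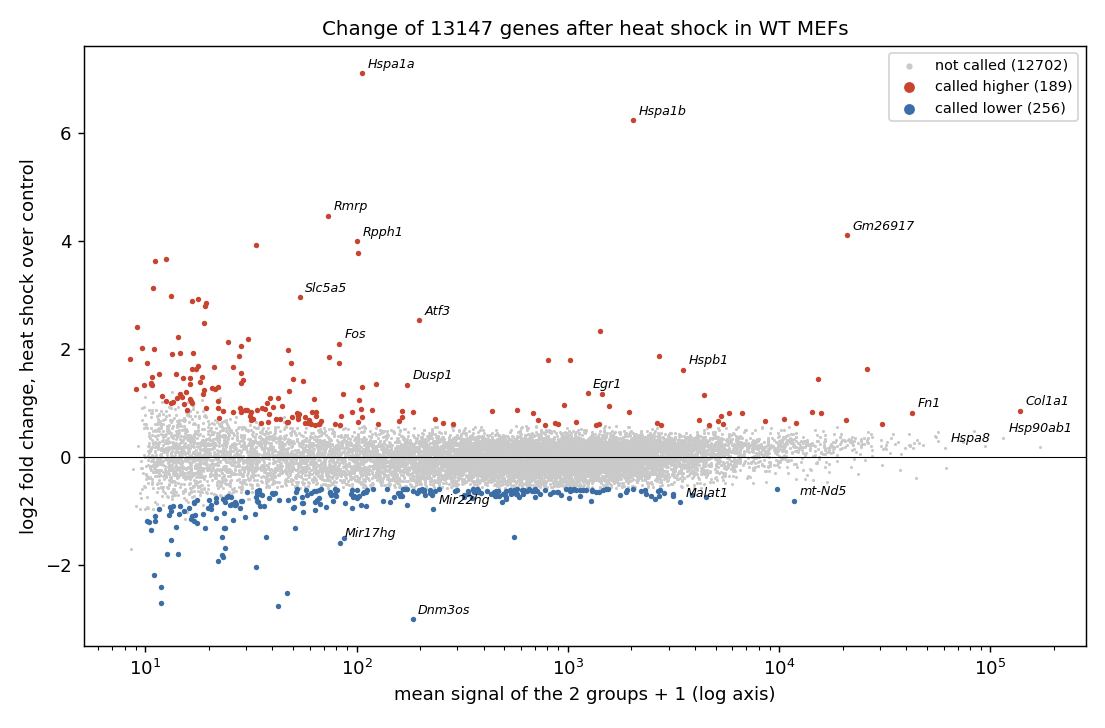
Log2 fold change of WT heat shock over WT control (vertical axis) against the mean signal of the 6 WT libraries plus 1 (horizontal axis, log scale) for the 13147 genes, 1 point a gene. Coloured points are the 189 genes called higher and the 256 called lower, and Hspa1a at 7.11 and Hspa1b at 6.24 stand at the top while Dnm3os at −3.0 lies at the bottom.

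Few chaperone genes passed the 1.5-fold threshold. Hspa1b and Hspa1a, the paired genes of the inducible cytosolic Hsp70, Hspb1, the small heat shock protein Hsp27, Dnajb1, an Hsp40 that works with Hsp70, and Bag3, a co-chaperone that links Hsp70 to autophagy, were called higher. These were 2 of 14 tested members of the Hsp70 and Hsp110 family, 1 of 38 Hsp40 genes and 2 of 12 small heat shock protein and Bag genes. No member of the 23 Hsp90 and cochaperone genes or the 16 chaperonin genes was called, and no chaperone gene was called lower. Over all genes 1.44% were called higher, so no call among 23 or 16 genes is near that share. Without the fold threshold 8 of the 23 Hsp90 genes were higher and 2 lower, and of the 16 chaperonin genes 5 and 1. In the Hsp70, Hsp40 and small heat shock protein lists these counts were 4 and 2, 3 and 5, and 5 and 2. Over all 13147 genes they were 1940 and 2046. The medians of these 5 groups lay between −0.02 and 0.20 on the log2 scale, beside −0.00 over all genes.

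Promoter sequences of the chaperone genes are shown first, because they let the heat shock elements near the starts of genes that were called be read beside those of genes that were not. Each line is a stretch of the RefSeq promoter (GRCm38.p6, 250 bases before to 50 after the start), written 5′ to 3′ on the strand of the gene, with 30 bases or fewer on either side of the elements. Capitals mark the GAA and TTC units of each pair of opposed units, GAANNTTC or TTCNNGAA, each of which reads the same on both strands and may overlap the next. Such a pair occurs in 13.5% of the promoters of the genes tested (1270 of 9389), and 3 units in a row, GAANNTTCNNGAA or its reverse complement TTCNNGAANNTTC, in 0.543% (51).
Hspa1b, chr17:34959305-34959372, minus strand: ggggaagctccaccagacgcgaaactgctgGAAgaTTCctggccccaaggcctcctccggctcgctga
Hspb1, chr5:135887772-135887859, plus strand: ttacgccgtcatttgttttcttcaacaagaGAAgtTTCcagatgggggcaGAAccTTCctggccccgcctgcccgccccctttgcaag
Hspe1, chr1:55088029-55088106, plus strand: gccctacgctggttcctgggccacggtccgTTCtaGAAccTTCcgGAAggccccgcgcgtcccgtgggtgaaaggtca
Chordc1, chr9:18292233-18292316, plus strand: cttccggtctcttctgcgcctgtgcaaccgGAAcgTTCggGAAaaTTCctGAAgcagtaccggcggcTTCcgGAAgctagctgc
The stretch of Hspa1b is the same, base for base, in Hspa1a (chr17:34972223-34972290), and the whole promoters of the pair are identical at 296 of 300 positions. In both, 1 pair of units begins 104 bases before the start. Hspb1 has 2 pairs, beginning 117 and 97 bases before the start. Hspe1, the mitochondrial Hsp10, has 3 overlapping pairs, beginning 89, 84 and 79 bases before the start, that form 2 runs of 3 units. Chordc1, an Hsp90 cochaperone, has 5 pairs, of which the first begins 4 bases before the start and the others after it. The overlapping pairs form 3 such runs, and the last pair lies apart from them, beginning 33 bases after the start. The promoter of Hsph1, not shown here, holds 1 such run. The exact letters were found nowhere in the promoters of Dnajb1, Atf3, Fos, Dusp1 and Junb, which says only that these letters are not in that window. Among genes with a promoter sequence, a pair was found in 11 of 77 called higher (14.3%) and 23 of 159 called lower (14.5%), beside 13.5% of all. A run of 3 units was found in 0 of the 77 and 0 of the 159. Only 77 of the 189 higher and 159 of the 256 lower genes had a promoter sequence, so the rest could not be compared.

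Hspa1b had a signal of 48.7, 62.8 and 36.3 in the control libraries and 4376, 5677 and 2061 after heat shock. Every heat-shocked library lay far above every control, and heat shock 3 was the lowest of the 3. The fitted log2 fold change was 6.24 ± 0.25 (SE, n = 3 and 3; adjusted p = 5.78e-11, limma), and it ranged from 5.93 to 6.67 over the alternatives. Hspa1a was read in 1 control library only, with a signal of 0, 1.44 and 0 in the controls and 210.4, 331 and 90.9 after heat shock. In reads this is 2 against 583, a ratio of 415 per library depth, with a 95% counting interval of 114 to 3432. The 2 genes are near-identical single-exon genes on chromosome 17, so the division of reads between them depends on how the counting treated reads that match both, and the level of each is uncertain.

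Hspb1 was already abundant before heat, with a signal of 1900, 1671 and 1534, and reached 5852, 6346 and 3796 in the heat-shocked libraries, a log2 fold change of 1.62 ± 0.13 (adjusted p = 9.05e-07, limma). Dnajb1 went from 1417, 1417 and 1352 to 2831, 2778 and 1919, a log2 fold change of 0.82 ± 0.11 (adjusted p = 0.000152). For both genes all heat-shocked libraries lay above all controls, and heat shock 3 was again the lowest. Bag3 moved from 2334, 2157 and 2093 to 3297, 3461 and 3119, a log2 fold change of 0.59 ± 0.07 that sits on the threshold (1.5-fold is 0.585). Its call was lost under edgeR, TMM scaling, quantile normalisation, a pseudocount of 5 and the GC and length correction, and without control 2, control 3, heat shock 1 or heat shock 2.

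The abundant chaperones were not called after the 20 min. Hspa8, the constitutive Hsp70, had a signal of 56362, 56884 and 58351 in the controls and 62371, 60570 and 71053 after heat shock, a log2 fold change of 0.17 ± 0.08. Hsp90ab1, the constitutive cytosolic Hsp90, had 105067, 98671 and 97370 and 124876, 125068 and 136643, a log2 fold change of 0.36 ± 0.08 (adjusted p = 0.00286, limma), and its libraries did not overlap, but the change was under 1.5-fold. The inducible Hsp90aa1 had a log2 fold change of 0.09 ± 0.07, and Hsph1, an Hsp110 that recharges Hsp70, 0.21 ± 0.07. Those 2 genes whose promoters were shown with runs of 3 units stood at 0.30 ± 0.06 for Hspe1 and −0.01 ± 0.08 for Chordc1. Hspe1 rose by less than the fold threshold, from 3282, 3292 and 3453 to 4050, 4148 and 4147 (adjusted p = 0.00273), and the Chordc1 libraries overlapped, with 829.5, 923 and 979 and 912, 857 and 944.

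Hspd1, the mitochondrial Hsp60 that shares a bidirectional promoter with Hspe1, fell by less than the fold threshold, with a log2 fold change of −0.43 ± 0.08 (adjusted p = 0.00148, limma), and was called lower under quantile normalisation alone. Hspa5, the chaperone of the endoplasmic reticulum, had a log2 fold change of −0.08 ± 0.07, Dnaja1 0.01 ± 0.07, Dnajb4 0.23 ± 0.14, Hspb8 0.28 ± 0.06, Cryab 0.41 ± 0.08 and Hspa4 −0.08 ± 0.07, none of them called. The factor itself, Hsf1, had a log2 fold change of 0.31 ± 0.07 (adjusted p = 0.00697, limma) and Hsf2 −0.12 ± 0.09. None of the 7 heat shock factor genes and their partners, 44 proteasome genes, 30 unfolded protein response genes or 23 oxidative stress genes was called, and the last of these includes Hmox1, heme oxygenase 1, at 0.05 ± 0.07.

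**Figure D2:**
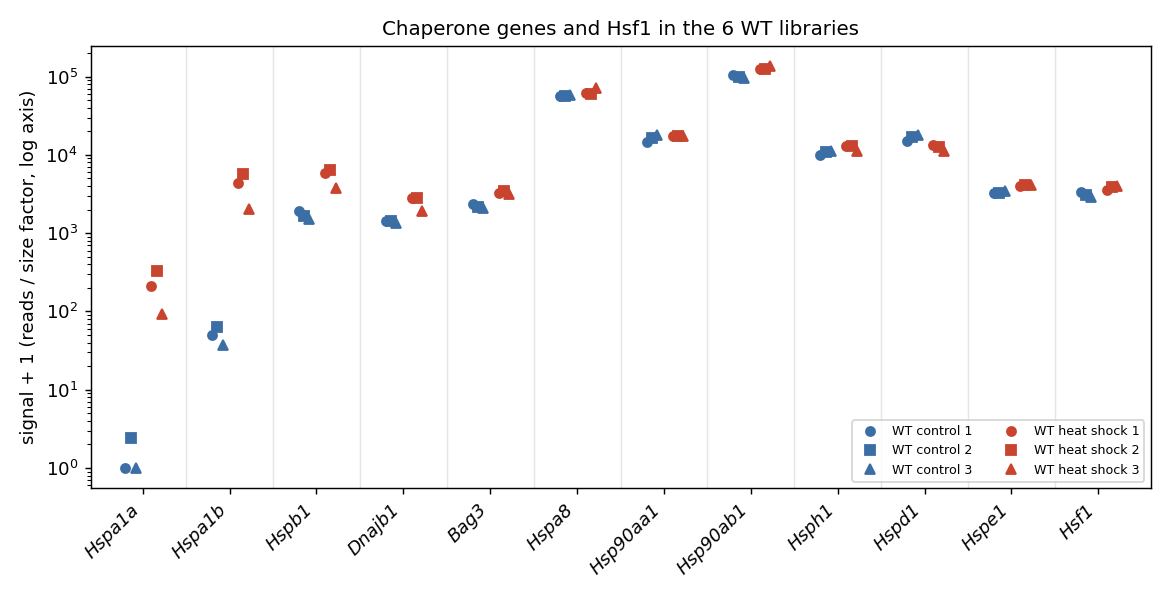
Signal (log scale) in each WT library for chaperone genes and Hsf1, plotted as signal plus 1, with 3 control libraries in blue and 3 heat-shocked libraries in red. Hspa1b, at 36.3 to 62.8 in the controls, lay at 2061 to 5677 after heat shock, while Hspa8 stayed between 56362 and 71053 across all 6 libraries.

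Some genes of the early transcriptional response were called higher too. They were 4 of 17 AP-1 and ATF genes (23.5%), 5 of 43 other immediate early genes (11.6%) and 1 of 18 MAP kinase phosphatases, beside 1.44% of all genes. The phosphatase call is 1 gene of a list with a median log2 fold change of 0.02. With the GC and length correction the calls were 3, 3 and 1, and the AP-1 and ATF median went from 0.25 to 0.01. The AP-1 and ATF genes were Atf3, a stress-induced repressor, and Fos, Jun and Junb, which pair to form AP-1. Those of the other list were Egr1 and Egr2, zinc finger factors of the serum response, Gadd45g, a stress sensor, and Ier2 and Ier5l, small nuclear proteins of immediate early response families. The phosphatase was Dusp1, which inactivates p38 and JNK. No member of these lists was called lower, and Myc (0.02) and the 24 NF-kB genes were not called.

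Atf3 had a signal of 55.0, 49.8 and 50.3 in the controls and 419.8, 459 and 146 after heat shock, a log2 fold change of 2.54 ± 0.28 (adjusted p = 3.04e-05, limma). Fos went from 20.7, 39.7 and 31.4 to 154, 151 and 95.1, a log2 fold change of 2.10 ± 0.23 (adjusted p = 2.29e-05). Dusp1 went from 94.4, 88.8 and 96.4 to 308, 303 and 142, a log2 fold change of 1.34 ± 0.21 (adjusted p = 0.000579). In these genes all heat-shocked libraries lay above all controls, and heat shock 3 stood well below heat shock 1 and 2. Jun, a partner of Fos, had 864, 911 and 841 in the controls and 2269, 2438 and 1380 after heat shock, a log2 fold change of 1.18 ± 0.14 (adjusted p = 6.62e-05). Egr1 had 592, 869 and 822 and 1978, 1460 and 1722, a log2 fold change of 1.18 ± 0.12 (adjusted p = 1.35e-05), with heat shock 3 between the other heat-shocked libraries. The rest rose by less, with log2 fold changes of 0.97 for Gadd45g, 0.87 for Egr2, 0.82 for Junb, 0.68 for Ier5l and 0.65 for Ier2. Gdf15, a secreted stress cytokine of the p53 list, had a log2 fold change of 0.91 ± 0.31 (adjusted p = 0.0335), but the call was lost without any 1 of 5 libraries (all but control 2), with DESeq2 and in the fit of all 12 libraries. The Ier5l call was lost without control 3 and without heat shock 2, and those of Junb, Ier2 and Ier5l with the GC and length correction.

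Heat shock 3 was set apart in this group of genes. Over the 15 called chaperone and early genes it was the lowest heat-shocked library in 11 and the highest in 0. The median over these genes of the log2 ratio to the control mean was 1.38 in heat shock 1, 1.19 in heat shock 2 and 0.80 in heat shock 3. Hspa1b stood 88.8-fold, 115-fold and 41.8-fold above the control mean in heat shock 1, 2 and 3, Atf3 8.12-fold, 8.88-fold and 2.83-fold, and Dusp1 3.31-fold, 3.26-fold and 1.52-fold. Heat shock 3 was also the shallowest library. Without it the fitted log2 fold changes of Atf3 and Dusp1 were 3.06 and 1.70, the highest of the settings run.

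A second strong rise was in short structural RNAs that RNA polymerase III makes and that carry no poly(A) tail. Rmrp, the RNA of RNase MRP, had a signal of 3.11, 6.50 and 6.99 in the controls and 121, 125 and 174 after heat shock, a log2 fold change of 4.47 ± 0.27 (adjusted p = 1.47e-08, limma). Rpph1, the RNA of RNase P, went from 13.5, 7.22 and 12.6 to 149, 191 and 226, a log2 fold change of 4.0 ± 0.23 (adjusted p = 8.74e-09). Rn7sk, the 7SK RNA that holds the elongation factor P-TEFb inactive, went from 8.30, 13.7 and 16.1 to 173, 138 and 254, a log2 fold change of 3.79 ± 0.25 (adjusted p = 3.3e-08). For each RNA the heat-shocked libraries lay far above the controls, and here heat shock 3 was the highest of the 3. Together the 3 RNAs took 24, 38 and 51 reads in the controls and 448, 418 and 474 in the heat-shocked libraries.

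Features taken here to lie at ribosomal RNA loci or to hold ribosomal RNA sequence rose with them, in a library kit built to select mRNA. Their sequences were not checked. Mir6236 had a signal of 1452, 1047 and 986 in the controls and 3847, 3715 and 5095 after heat shock, a log2 fold change of 1.87 ± 0.13, and mt-Rnr2, the large mitochondrial ribosomal RNA, 2184, 2655 and 3388 and 5590, 4878 and 7753, a log2 fold change of 1.14 ± 0.14 (adjusted p = 9.32e-05, limma). The small mitochondrial ribosomal RNA, mt-Rnr1, had a log2 fold change of 0.42 and was not called. Lars2, the mitochondrial leucyl-tRNA synthetase, had 9203, 6881 and 8189 and 21989, 17309 and 27660, a log2 fold change of 1.45 ± 0.13. The predicted gene Gm26917, chosen after its values were seen, had 2884, 2224 and 1844 and 33718, 40695 and 44603, a log2 fold change of 4.11 ± 0.12. A set of 10 such features, put together after their values were seen and with Lars2 counted among them, took 0.164%, 0.133% and 0.155% of the reads in the controls and 0.534%, 0.525% and 0.662% after heat shock. In Mir6236, mt-Rnr2, Lars2 and Gm26917 every heat-shocked library lay above every control. How far the yield of RNA without a poly(A) tail differed between the groups was not tested.

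**Figure D3:**
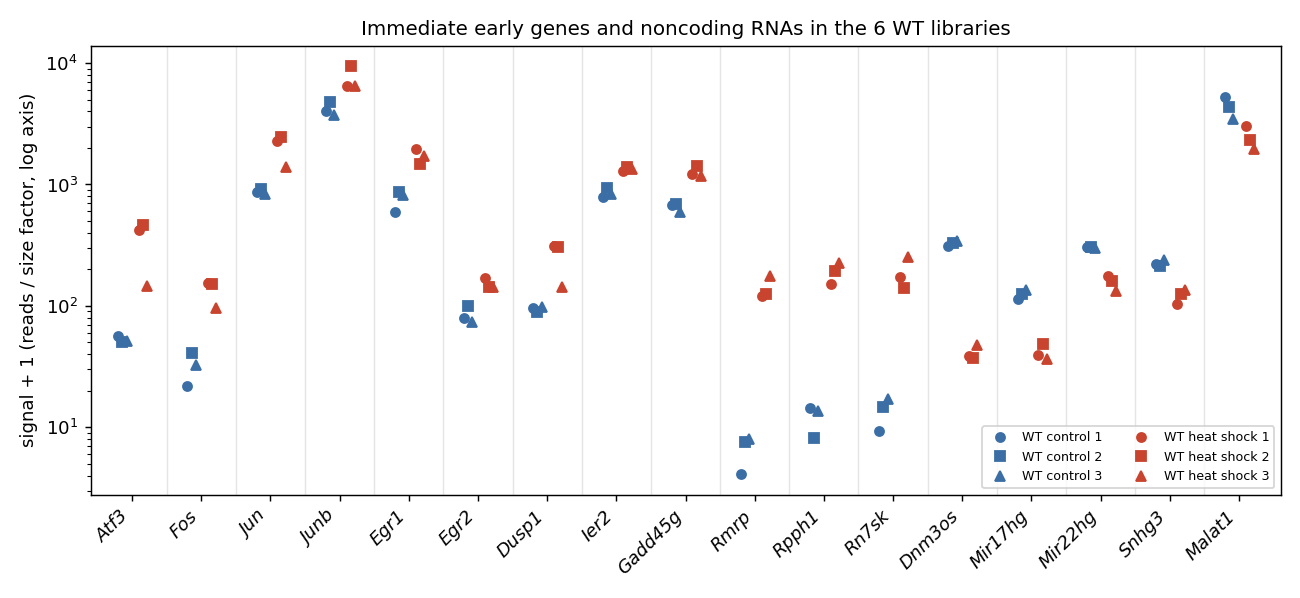
Signal (log scale) in each WT library for immediate early genes and for noncoding RNAs, plotted as signal plus 1, with 3 control libraries in blue and 3 heat-shocked libraries in red. Atf3 lay at 49.8 to 55.0 in the controls and 146 to 459 after heat shock, Rn7sk at 8.30 to 16.1 and 138 to 254, and Dnm3os fell from 309 to 340 to 35.9 to 46.8.

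Collagens and other genes of the extracellular matrix had the most higher calls of the coding lists. Of 29 collagen genes tested 8 were called higher and none lower, with 28 of 29 fitted above 0 and a median log2 fold change of 0.43. Over all 13147 genes 6547 were fitted above 0. Of 38 other matrix genes 6 were called higher and none lower, with a median of 0.35. Col1a1, the main fibrillar collagen, had a signal of 106899, 98150 and 90024 in the controls and 168249, 175518 and 188743 after heat shock, a log2 fold change of 0.85 ± 0.08 (adjusted p = 5.27e-06, limma). Fn1, fibronectin, went from 32977, 30905 and 28888 to 54302, 51470 and 57566, a log2 fold change of 0.82 ± 0.07 (adjusted p = 2.4e-06). Col5a1, which nucleates collagen fibrils, went from 11030, 10626 and 9303 to 17052, 18580 and 19217, a log2 fold change of 0.83 ± 0.07. In all 3 every heat-shocked library lay above every control, and the Col1a1 and Fn1 calls were lost under quantile normalisation.

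The basement membrane members were Col4a2 (0.76), Col4a1 (0.70), Hspg2, the proteoglycan perlecan (0.82), and Lama5, a laminin chain (0.82), as log2 fold changes. Col15a1 (0.68), Col7a1 (0.66), Col6a2 (0.62) and Col1a2 (0.61) made up the collagen calls, and the latent TGF-β binding proteins Ltbp2 (0.62), Ltbp4 (0.61) and Ltbp3 (0.59) the matrix calls. Col4a1 and Col4a2 lie head to head, and whether reads were counted by strand is not stated. Most matrix calls were close to the fold threshold. With the GC and length correction 5 collagen and 3 matrix genes were called (median 0.37 for the collagens), under quantile normalisation 4 and 4, and without control 3 again 5 and 3. The calls lost without control 3 were those of Col7a1, Col6a2, Col1a2, Ltbp2, Ltbp3 and Ltbp4. Those of Col1a2, Ltbp2 and Ltbp3 were also lost without heat shock 3, and that of Ltbp3 without control 2. In the 14 collagen and matrix calls the order of the libraries was another one than in the chaperone genes, as heat shock 3 was the highest of the heat-shocked libraries in 11, control 1 the highest of the controls in 13 and control 3 the lowest in 13.

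Of 37 actin and contractile genes, 2 were called higher: Flnc, filamin C, at a log2 fold change of 0.67, and Acta1, skeletal muscle α-actin. Acta1 was low, with a signal of 10.4, 5.05 and 9.78 in the controls and 37.5, 46.8 and 33.1 after heat shock, a log2 fold change of 2.13 ± 0.30 (adjusted p = 0.000248, limma). The summed markers of skeletal muscle, of which Acta1 is 1, lay at 14.4 to 20.3 in the controls and 45.5 to 64.2 after heat shock. Lrp1, an endocytic receptor, was the single call among 30 genes of large structural and membrane proteins, at 0.68. Apoe, a lipid carrier, went from 73.6, 61.4 and 46.8 to 151, 169.6 and 127, a log2 fold change of 1.30 ± 0.17 (adjusted p = 0.000149). Slc5a5, the thyroid iodide transporter, went from 8.30, 13.7 and 10.5 in the controls to 106, 124 and 55.1 after heat shock, a log2 fold change of 2.97 ± 0.28 (adjusted p = 4.33e-06, limma).

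At a signal of 100 or more in the controls, the named genes with the largest falls were host transcripts of microRNAs. Dnm3os, the host transcript of the miR-199a and miR-214 cluster, had a signal of 309, 329.9 and 339.5 in the controls and 37.5, 35.9 and 46.8 after heat shock, a log2 fold change of −3.0 ± 0.14 (adjusted p = 3.64e-10, limma). Mir17hg, the host of the miR-17-92 cluster, went from 112, 124 and 135 to 38.5, 47.8 and 35.8, a log2 fold change of −1.59 ± 0.17 (adjusted p = 1.27e-05). Mir22hg went from 304, 306 and 298 to 174, 159.9 and 131, a log2 fold change of −0.97 ± 0.12 (adjusted p = 6.62e-05). In all 3 the libraries of a group were close together and the groups did not overlap. They were 3 of the 5 microRNA host genes tested, and all 3 were called in every setting run. Dnm3os lies antisense within Dnm3, so reads of the 2 genes cannot be told apart if the counting took no account of strand.

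Host genes of small nucleolar RNAs (snoRNAs) fell as well, in 3 of 11 tested. Snhg3 had a signal of 219.8, 212 and 239 in the controls and 102, 125 and 134 after heat shock, a log2 fold change of −0.90 ± 0.13 (adjusted p = 0.000249, limma), and Snhg4 and Snhg5 had log2 fold changes of −0.70 and −0.64, the latter not called without control 3. Among 21 structural noncoding RNAs 6 were called higher and 6 lower. The lower ones were snoRNAs, led by Snora57, with 89.2, 65.0 and 78.2 in the controls and 6.91, 12 and 23.4 after heat shock, a log2 fold change of −2.52 ± 0.31, and followed by Snord100 (−2.40), Snora17 (−1.81), Snora73b (−1.48), Snord104 (−1.31) and Snord83b (−1.31). The higher ones were the 3 polymerase III RNAs above with Snora7a (1.41), Snora31 (0.91) and Snora68 (0.68), the last not called without control 1 or without heat shock 2. For Rmrp, Snord100 and Snora17 the rule for the genes compared fixed the direction. SnoRNAs sit inside introns of their hosts (Snora73b in Snhg3, for example), so their reads may include reads of the unspliced host.

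Malat1, a nuclear RNA of splicing speckles, and Dleu2 were called lower among 15 long noncoding RNAs. Malat1 went from 5251, 4347 and 3452 to 3013, 2329 and 1944, a log2 fold change of −0.84 ± 0.14 (adjusted p = 0.00066, limma), and Dleu2 had a log2 fold change of −0.81. Their groups did not overlap, but neither call held with the GC and length correction. The same held for Ranbp2, the nucleoporin of the cytoplasmic filaments of the pore, which was the 1 call among 29 nucleoporins, with 2578, 3384 and 3905 in the controls and 2100, 1785 and 1780 after heat shock, a log2 fold change of −0.78 ± 0.11 (adjusted p = 0.000273). It held too for Mob1b, a Hippo pathway adaptor (−0.83), and Akap11, an anchor of protein kinase A (−0.81).

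Zinc finger genes had the most lower calls of the coding lists. Of 311 genes named Zfp, 21 were called lower and none higher, with a median log2 fold change of −0.20 and 82 of 311 fitted above 0. Over all 13147 genes 6547 were fitted above 0. Zfp125 (−1.84), Zfp273 (−0.99), Zfp85 (−0.95), Zfp738 (−0.93), Zfp472 (−0.91), Zfp935 (−0.89) and Zfp763 (−0.88) led the lower Zfp calls, and the annotation classes Zfp125 as a transcribed pseudogene. Zfp472 had a signal of 114, 159.6 and 161 in the controls and 83.0, 73.9 and 70.3 after heat shock (adjusted p = 0.000853, limma). The controls lay above the heat-shocked libraries, with control 1 closest to them. The count depended on single libraries, with 41 called without control 1, 7 without control 3 and 10 without heat shock 3, and it was 6 (median −0.08) with the GC and length correction. The Zfp273 call was lost without control 2, control 3, heat shock 2 or heat shock 3, and that of Zfp935 without control 3, heat shock 1 or heat shock 3.

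Of the other lower coding genes, mt-Nd5, a mitochondrially encoded subunit of complex I, went from 10754, 14892 and 19725 to 8685, 8251 and 8235, a log2 fold change of −0.81 ± 0.14 (adjusted p = 0.000834, limma). It was the single call among 9 mitochondrial mRNAs, whose median was −0.21. Its controls were uneven, as was the share of reads from the mitochondrial genome, which was 0.687%, 0.892% and 1.19% in the controls and 0.701%, 0.687% and 0.692% after heat shock. Fzd6, a Wnt receptor, was the single lower call of 40 Wnt genes, at −1.32. Zmat3, a p53 target that binds RNA, was at −0.65, a call lost without heat shock 3. Gdpgp1 (−0.94), Prrg4 (−0.85) and Smim13 (−0.83) complete the genes with the largest falls at a signal of 100 or more, and the Prrg4 call was lost without heat shock 3.

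Other groups had few calls or none. None of the 50 cell cycle, 47 splicing, 49 translation factor, 79 oxidative phosphorylation or 75 mitochondrial ribosomal protein genes was called. Cytosolic ribosomal protein genes shared a small shift: 82 of 85 were fitted above 0, with a median log2 fold change of 0.28, and 67 had an adjusted p of at most 0.05 without a call. Over all 13147 genes 6547 were fitted above 0 and 1940 were higher at that adjusted p. With the GC and length correction the median of the ribosomal protein genes was 0.13 and with quantile normalisation 0.09. Of 191 solute carriers, 1 was called higher and 1 lower, and of 88 small GTPase genes 2 and 2, with Rab4b (0.77), Rac3 (0.75) and Rab8b (−0.61) among them. Of 7 histone genes tested, from 69 listed, Hist1h1a (1.82) and Hist1h4d (1.54) were called higher and Hist2h2be (−0.96) lower, none of them with DESeq2. In the controls Hist1h1a had a signal of 1.04, 4.33 and 3.49 and Hist1h4d one of 3.11, 8.66 and 6.99. Both genes reached 10 only in heat-shocked libraries, so the rule for the genes compared fixed their direction. Leaving out heat shock 3 ended the calls of Rab4b, Rab8b, Hist1h4d and Hist2h2be. Those of Rab8b and Hist2h2be were also lost without control 3 or heat shock 1, and that of Hist2h2be without control 2. Tgm2, the gene of type 2 transglutaminase, had a signal of 1750, 1635 and 1605 in the controls and 2049, 1957 and 1989 after heat shock, a log2 fold change of 0.27 ± 0.07 (adjusted p = 0.00891, limma), and Ctnnb1, β-catenin, one of −0.27 ± 0.06 (adjusted p = 0.00535), both under the fold threshold.

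**Figure D4:**
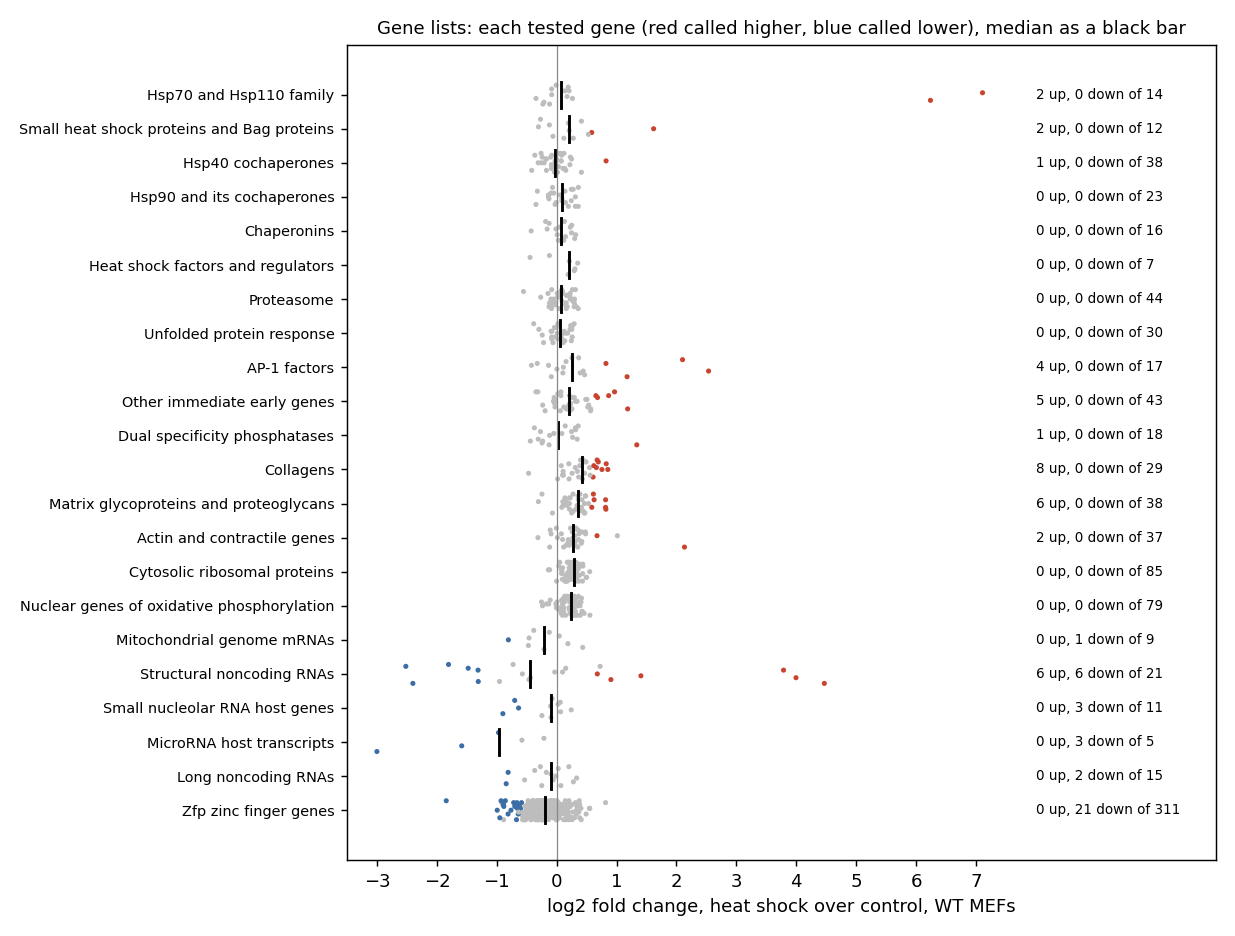
Log2 fold change of WT heat shock over WT control for every tested member of the gene lists shown, 1 point a gene (red called higher, blue called lower, grey not called), with a black bar at the list median. Collagens are centred at 0.43 and microRNA host genes at −0.97, while the Hsp70, Hsp40 and Hsp90 lists are centred within 0.10 of 0, with Hspa1a and Hspa1b of the Hsp70 list far to the right.

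The called genes are described here by their structure, taking the 169 higher, 239 lower and 12576 genes in all that matched GENCODE M21 by symbol. Of the genes called higher 36.1% had a single exon, against 15.1% of those called lower and 6.40% of all genes. The median exonic length was 2154 bases for the higher, 4733 for the lower and 4322 for all genes, and the median GC content 55.6%, 43.6% and 49.8%. The annotation classed 107 of the higher genes as protein coding, 27 as pseudogenes, 17 as long noncoding, 8 as microRNA and 6 as snoRNA genes. For the lower genes these counts were 180 protein coding, 7 pseudogene, 40 long noncoding and 10 snoRNA genes. All 12576 genes held 11491 protein coding, 527 pseudogene, 488 long noncoding, 12 microRNA and 41 snoRNA genes.

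The change followed base composition across all genes. From the lowest to the highest quintile by GC content the median log2 fold change was −0.21, −0.12, −0.02, 0.10 and 0.21, and the calls went from 7 higher and 129 lower to 85 higher and 10 lower. By length the medians ran from 0.17 in the shortest quintile to −0.17 in the longest. The same quintiles by GC in the TG2 KO MEFs had medians of −0.03 to 0.05. Single libraries carried a trend of their own within the groups: the log2 difference between the highest and lowest GC quintile in the deviation from the WT mean was 0.065, −0.238 and −0.449 in the 3 controls and 0.125, 0.211 and 0.281 in the 3 heat-shocked libraries. What part of the changes belongs to this trend was not tested beyond the GC and length correction, chosen after the data were seen, under which 120 genes were called higher and 126 lower. Of these, 110 and 93 were among the genes called without it, and Hspa1b, Hspb1, Atf3, Fos, Rn7sk and Dnm3os kept their calls.

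**Figure D5:**
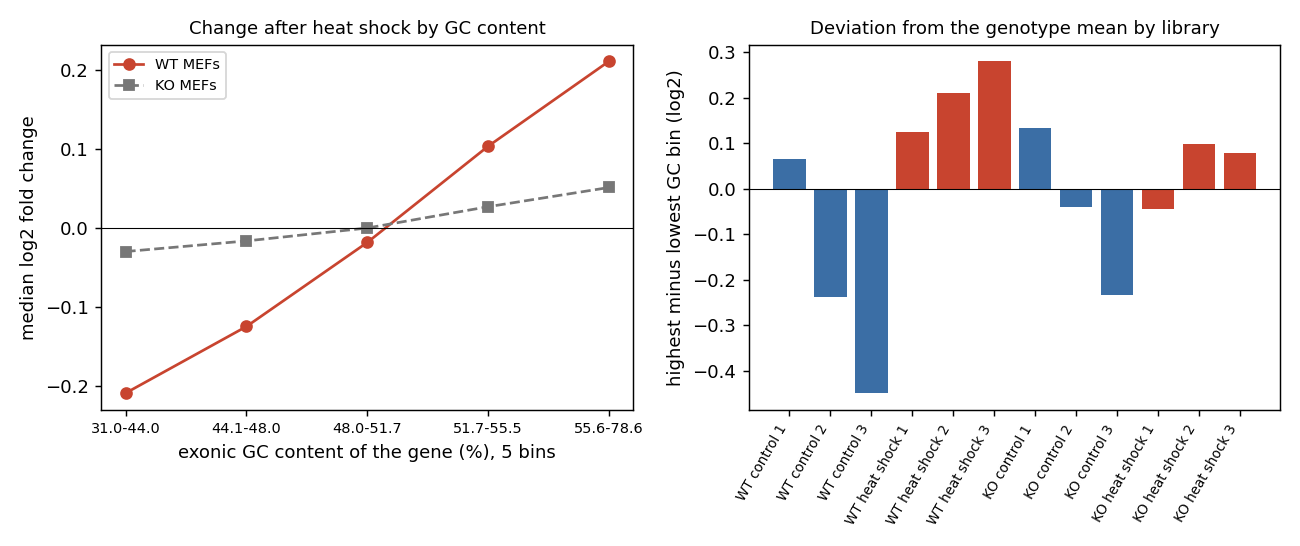
Median log2 fold change of heat shock over control by quintile of exonic GC content (left, lowest to highest) for WT and TG2 KO MEFs, and the log2 difference between the highest and lowest quintile of the deviation from the genotype mean in each of the 12 libraries as bars (right, controls blue, heat shock red). The WT medians climb from −0.21 to 0.21 and the KO medians from −0.03 to 0.05.

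Some of the weakly expressed coding genes that rose lay just behind another gene on the same strand. A gene with a mean signal of at least 100 ended within 5 kb upstream of 25 of 107 coding genes called higher (23.4%), of 4 of 180 called lower (2.22%) and of 1124 of all 11491 (9.78%). Among genes with a mean signal under 100 the counts were 18 of 53 higher (34.0%), 1 of 57 lower (1.75%) and 176 of 1653 in all (10.6%). Acta1 begins 2372 bases behind Nup133 (−0.09) and Apoe 2125 bases behind Tomm40 (0.35). Gm8696, chosen after its values were seen, begins 1724 bases behind Hspa1b, and its 3 reads in the controls became 57 after heat shock, a ratio of 27.0 with a 95% counting interval of 8.79 to 135. Where within these genes the reads lie cannot be read from a table of gene totals.

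The response of TG2 KO MEFs to the same treatment was set beside that of WT MEFs over the same 13147 genes, and the difference (KO change minus WT change) was fitted in the 12 libraries together. No gene was called for it (0.0%), the smallest adjusted p was 0.0535, and 2472 genes had an unadjusted p under 0.05 in limma. edgeR called 5 genes in each direction and DESeq2 26 positive and 8 negative differences. Hspb1, Rmrp, Rn7sk and Mir17hg had fitted changes in KO near those in WT, of 1.26 ± 0.16, 4.59 ± 0.26, 4.09 ± 0.25 and −1.78 ± 0.17 on the log2 scale, beside 1.62, 4.47, 3.79 and −1.59 in WT, and none of these differences was called, apart from that of Rmrp under quantile normalisation, at −1.81.

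Of the genes described above, the following differed more between the genotypes, with no difference past the threshold. Hspa1b had a signal of 2.12, 9.99 and 4.52 in KO controls and 70.1, 66.4 and 103 in heat-shocked KO MEFs, a log2 fold change of 3.79 ± 0.41, and the difference was −2.46 ± 0.58 (adjusted p = 0.106, limma). Hspa1a had 0, 0 and 0 in KO controls and 5.65, 3.11 and 11.5 after heat shock, with a difference of −4.30 ± 0.69 (adjusted p = 0.0556). As Hspa1a was at or near 0 in the controls of both genotypes, the size of this difference rests on the heat-shocked levels and the pseudocount. It also passed the rule only through heat-shocked WT libraries, which favours a larger WT change. For Rpph1, the other polymerase III RNA, the signal was 30.8, 46.6 and 44.1 in KO controls and 163, 143 and 162 after heat shock, a log2 fold change of 1.94 ± 0.23 beside 4.0 ± 0.23 in WT, and the difference was −2.06 ± 0.32 (adjusted p = 0.0535). In Hspa1a and Hspa1b the heat-shocked KO libraries lay below all heat-shocked WT libraries, while for Rpph1 the heat-shocked libraries overlapped and the KO controls lay above the WT controls. Atf3 had a change of 0.69 ± 0.33 in KO and a difference of −1.85 ± 0.46 (adjusted p = 0.11). For Jun the KO change was 0.05 ± 0.16 and the difference −1.13 ± 0.22 (adjusted p = 0.0934), and for Dusp1 0.04 ± 0.21 and −1.30 ± 0.30 (adjusted p = 0.106). The KO controls of both already stood above the WT heat shock mean, with 3188, 2919 and 2426 for Jun and 519, 484 and 484 for Dusp1, and heat-shocked KO MEFs had 2965, 2777 and 3024 and 495, 473 and 562. In the other direction, the Dnm3os fall was smaller and the mt-Rnr2 rise larger in the KO fit. In Dnm3os the KO change was −1.85 ± 0.15 and the difference 1.15 ± 0.21 (adjusted p = 0.0668), and in mt-Rnr2 2.51 ± 0.18 and 1.37 ± 0.25 (adjusted p = 0.0668). The Hspa1b difference was called with DESeq2, a pseudocount of 5 and quantile normalisation and without WT control 1. Those of Hspa1a and Rpph1 were called with a pseudocount of 5, quantile normalisation, a filter of 50 and the GC and length correction, and without WT control 1, WT heat shock 1 or KO control 3, that of Hspa1a also without WT heat shock 3 and that of Rpph1 also with edgeR and without KO control 1.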

How the data were processed

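Libraries were made from RNA of WT and TG2 KO MEFs with a stranded mRNA kit and sequenced. The submitters' processing notes name cutadapt 1.10, STAR 2.5.2 and the mm9 build, while the methods of the study name GRCm38, patch 6, and HTSeq-count 0.6.1. Whether reads were counted by strand is not given in the sources used here. The deposited signal values are read counts that the authors divided by a DESeq2 size factor per library. All values were whole multiples of 1 read, within 0.01 read, so whole reads were recovered, 1 read being 0.699 to 1.38 units of signal in the WT libraries. Every column could be assigned to a library. No column of the authors' own comparisons was present.

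The log2 of signal plus a pseudocount of 1 on the 6 WT libraries was modelled in R 4.3.3 by limma 3.58.1 (eBayes with a trend), and p-values were adjusted over 13147 genes (Benjamini-Hochberg, two-sided). Fold changes on this scale understate changes of low genes. The difference between genotypes used all 12 libraries. Alternatives were edgeR 4.0.16 and DESeq2 1.42.0 on whole reads, other pseudocounts, filters and scalings, a replicate block, leaving out each library, and a GC and length correction chosen after the data were seen. The scripts were tested on simulated data. Intervals at 95% cover counting error only.

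Genes were named by rule: the 15 called genes with the largest change each way among those whose higher group averaged 100 or more and whose groups did not overlap, up to 6 called members each way of each gene list, and canonical heat shock genes. The members and the lists were chosen with earlier results of these data known. Gene positions came from GENCODE M21 (GRCm38) by symbol, for 12576 of 13147 genes (95.7%), and promoters from RefSeq (GRCm38.p6), for 9389 (71.4%). Col6a2, Col1a2, Cd68 and mt-Rnr1 were named outside the rule, after their values were seen, as were the neighbours of Acta1 and Apoe. A few genes within the rule are not reported here.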

Additional observations from a re-analysis of the deposited data

How the results depend on the processing

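The counts of 189 higher and 256 lower genes stayed within 1.5 times of these under TMM scaling (184 and 258), quantile normalisation (188 and 223), edgeR (203 and 266), DESeq2 (131 and 194), the fit in 12 libraries (189 and 252) and pseudocounts of 5 (182 and 244) and 0.5 (189 and 257). They were 120 and 126 with the GC and length correction, 98 and 173 with a filter of 50, 371 and 309 with no filter, and 1940 and 2046 with no fold threshold. Leaving out 1 library gave 139 to 272 higher and 128 to 462 lower genes. Without control 1 the lower count was 462 and without heat shock 1 it was 408, and without control 3 it was 128 and without heat shock 3 162. The median of all genes moved by less than 0.01 under every scaling.

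Of 81 genes named by the rule and called, 45 kept the call in every setting apart from the one with no fold threshold. For the difference between genotypes the counts called positive and negative were 0 and 0, and 26 and 8 with DESeq2, 20 and 8 with the GC and length correction, 5 and 5 with edgeR, 2 and 1 with a pseudocount of 0.5, 7 and 4 with 5, 8 and 17 with quantile normalisation and 0 and 3 with a filter of 50. Leaving out 1 library gave 0 to 114 positive and 0 to 31 negative calls, with 114 and 31 without WT control 1, 52 and 17 without WT heat shock 1, 11 and 7 without KO control 3, 4 and 5 without WT heat shock 3 and 1 and 1 without KO control 1. The Rmrp difference changed sign under quantile normalisation, to −1.81. The cause was not tested.

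Whether the replicate numbers pair the WT libraries is not known. The correlations of the deviations of same-numbered libraries from their group means were −0.120, 0.062 and −0.043. Those of libraries with other numbers lay between −0.085 and 0.11. With 3 libraries a group, each with a GC trend of its own, these values cannot show whether same-numbered libraries shared a culture or batch. With the replicate number as a block 186 genes were called higher and 235 lower, and the difference had 0 and 0 calls. Genes at a few reads, such as Hspa1a in the controls, have wide counting intervals.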
